A study of Mus musculus with 7 samples.

Results

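Histone genes were compared between WT and SCA7 retina. The members are the protein-coding genes of the count table whose symbol begins with Hist1h, Hist2h, Hist3h, Hist4h, H2af, H3f or H1f, and 82 of the 52550 genes of the table fulfil this rule, of which 21819 are protein-coding. Among them, 67 are clustered histone genes (6 H1, 18 H2A, 18 H2B, 12 H3 and 13 H4 genes) and 15 are variant histone genes (4 H1, 9 H2A and 2 H3 genes). The clustered genes lie on chromosome 13 (54 genes), chromosome 3 (10 genes), chromosome 11 (2 genes) and chromosome 6 (1 gene). The retina of 7 C57BL/6J mice of 12.5 weeks was analysed by total RNA-seq, with 4 WT mice and 3 SCA7 140Q/140Q mice. SCA7 mice carry an expanded CAG repeat in the first coding exon of both *Atxn7* alleles, at the gene's own locus and under its own promoter. Ataxin-7, the encoded protein, is a subunit of the SAGA histone acetyltransferase complex, and its expansion causes a degeneration of photoreceptors. Both retinas of a mouse gave a single library. The study used male and female mice, but no library had the pattern of a female: *Xist*, which is read from the inactive X chromosome, had 4 to 19 counts per library, and the Y-linked gene *Ddx3y* had 6130 to 11161 counts.

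Histones H2A, H2B, H3 and H4 form the protein core around which DNA is wrapped, and linker histone H1 binds where DNA enters and leaves it. Clustered histone genes are read mainly while DNA is replicated. Their mRNAs typically end in a conserved stem-loop, bound by the stem-loop binding protein SLBP, in place of a poly(A) tail. Variant histone genes are mostly read throughout the cell cycle and give polyadenylated mRNAs. The H3 variant H3.3 is the main source of new H3 in neurons, which no longer divide. No H2B or H4 variant gene is among the members. The libraries were made from RNA depleted of ribosomal RNA and primed at random, so transcripts without a poly(A) tail were not selected against.

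The stem-loop was searched after the stop codon of every annotated member transcript, as the letters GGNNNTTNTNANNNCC on the transcript's strand, a stem of 6 base pairs, at least 5 of them complementary, around a loop of 4 bases. It was found in 46 of 67 clustered genes (12 of 13 H4, 9 of 12 H3, 11 of 18 H2A, 10 of 18 H2B and 4 of 6 H1 genes) and in 1 of 15 variant genes, *H2afx*. For 11 of the 21 clustered genes without a match, the annotated transcript is no longer than its coding sequence, so the window holds no sequence after the stop codon. A form shared by 26 H1, H2A, H2B and H3 genes, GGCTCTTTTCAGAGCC, was the most frequent of 9 forms, and 7 H4 genes share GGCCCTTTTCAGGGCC. The sites are shown for the member with the highest level, for the 3 genes called lower in which a site was found, for *Hist3h2a*, the clustered H2A gene with the most counts, and for *H2afx*, in GRCm38, 5′ to 3′ on the gene's strand with the 16 bases of the stem-loop in capitals.
*Hist1h4c*, chr13:23698084-23698109, minus strand: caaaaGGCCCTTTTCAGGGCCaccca
*Hist1h1c*, chr13:23739507-23739532, plus strand: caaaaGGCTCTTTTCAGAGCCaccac
*Hist1h3a*, chr13:23761885-23761910, minus strand: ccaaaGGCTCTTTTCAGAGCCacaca
*Hist2h3c2*, chr3:96238480-96238505, minus strand: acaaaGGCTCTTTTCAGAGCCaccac
*Hist3h2a*, chr11:58955167-58955192, plus strand: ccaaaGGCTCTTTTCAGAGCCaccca
*H2afx*, chr9:44335235-44335260, plus strand: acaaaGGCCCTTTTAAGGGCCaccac

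The sequence upstream of the members was compared by the letters of known promoter motifs. RefSeq windows of 300 bases, from 250 bases before to 50 bases after the start (GRCm38.p6), were matched to 76 of 82 members, 62 clustered and 14 variant genes. On either strand, the letters CCAAT were found in 85.7% of the 63 windows of clustered genes, 71.4% of the 14 windows of variant genes and 37.4% of all 32851 windows. By family, CCAAT was in every window of clustered H1, H2A, H2B and H3 genes and in 3 of 12 windows of H4 genes. TATAAA was found in 55.6% of clustered, 7.14% of variant and 13.6% of all windows. AAACACA, known as the H1 box, was in 5 of 6 windows of clustered H1 genes against 7.18% of all windows. ATTTGCAT, the octamer, was in 7 of 17 windows of clustered H2B genes and 7 of 18 windows of H2A genes against 1.74% of all windows. Windows of neighbouring H2A and H2B genes can overlap, as those of *Hist1h2aa* and *Hist1h2ba* do. The same site of any of these motifs can thus count for both families. None of these motifs contains another, and a match describes the letters and not binding.

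Transcripts of clustered genes were found in every library of adult retina. In WT retina, the summed level of clustered genes was 3691, 3719, 5565 and 3139 CPM (counts scaled by TMM to a common library size) in replicates 1 to 4. In SCA7 retina it was 2687, 2880 and 3632 CPM. The SCA7 mean was 0.761 times the WT mean (4029 ± 1059 CPM, SD, n = 4, against 3066 ± 499 CPM, n = 3), but SCA7 replicate 3 lay above WT replicate 4, so the groups overlapped. The ratio was 0.872 without WT replicate 3, 0.691 without SCA7 replicate 3 and 0.792 without both, where the groups no longer overlapped. Variant genes summed to 1500, 1611, 1740 and 1554 CPM in WT and 1585, 1616 and 1598 CPM in SCA7 retina, a ratio of 0.999. The ratio of clustered to variant genes does not depend on library scaling and was 2.46, 2.31, 3.20 and 2.02 in WT against 1.69, 1.78 and 2.27 in SCA7 libraries. Only SCA7 replicate 3 was within the WT range. All members together took 0.469% to 0.730% of scaled counts in WT and 0.427% to 0.523% in SCA7 libraries. As each library is a whole retina, fewer cells of a type and less RNA per cell cannot be told apart.

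**Figure D1:**
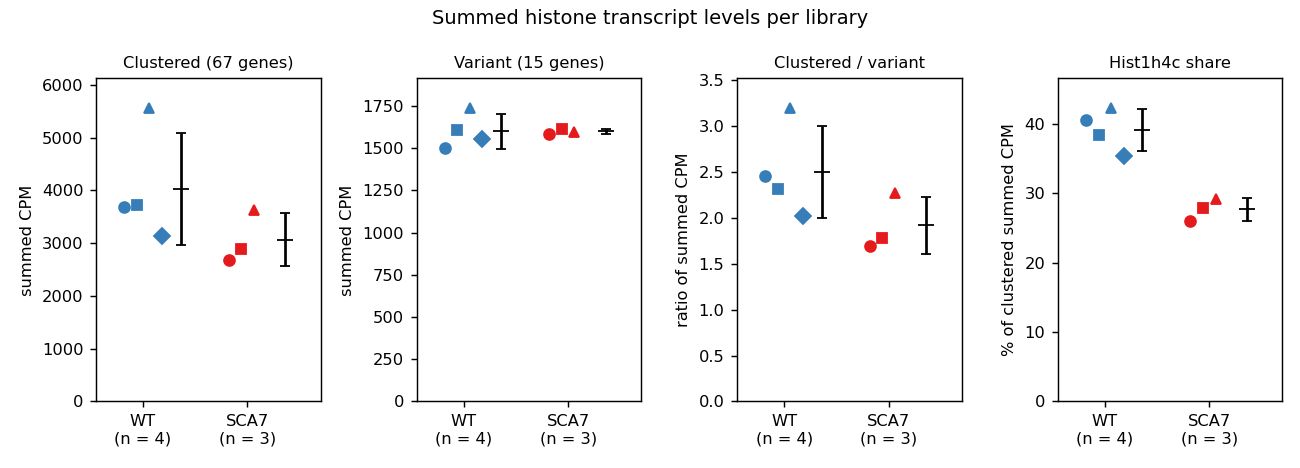
Summed CPM of the 67 clustered and 15 variant histone genes, their ratio, and the share of Hist1h4c in the clustered sum in percent, for 4 WT (blue) and 3 SCA7 (red) libraries. Markers are libraries (circle, square, triangle and diamond for replicates 1 to 4), and black bars give the mean ± SD. The triangle, replicate 3, is highest in the clustered sum of both genotypes, and the Hist1h4c share is 35.3% or more in WT and 29.2% or less in SCA7 libraries.

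A single gene made up much of the clustered sum. *Hist1h4c*, which encodes histone H4, had 1499, 1431, 2355 and 1108 CPM in WT and 697, 803 and 1060 CPM in SCA7 retina, so every SCA7 library was below every WT library. Its share of the clustered sum was 35.3% to 42.3% in WT and 26.0% to 29.2% in SCA7 libraries, again without overlap. Without *Hist1h4c*, the ratio of the SCA7 to the WT mean of the other 66 genes was 0.910, with overlapping groups (2031 to 3210 CPM and 1989 to 2571 CPM). This ratio turned to 1.02 without WT replicate 3, and it was 0.837 without SCA7 replicate 3 and 0.937 without both.

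Of the members, 65 had enough counts to be tested (54 clustered and 11 variant genes), and 7 had no count in any library (3 clustered genes, *Hist1h2ba*, *Hist2h2aa1* and *Hist2h3c1*, and 4 variant genes, *H1fnt*, *H2afb1*, *H2afb2* and *H2afb3*), which allows a level of up to 3 counts, 0.0292 to 0.0563 CPM by library for counting error only. For members that share sequence with other genes, such as *Hist2h2aa1* and *Hist2h3c1*, which also overlap a gene on the same strand, this limits the counts under that name and not the level. A gene was called lower at an adjusted p under 0.05 in edgeR's quasi-likelihood test and FC (SCA7/WT) under 0.7, and higher at FC above 1.3. *Hist1h1c*, *Hist1h1a*, *Hist1h3a* and *Hist2h3c2* were lower, 7.41% of the 54 clustered genes tested against a background of 7.91% of all 20128 genes tested. This share is near the background and is not a result about the class. No clustered gene was called higher, against 7.47% of all genes, and no variant gene was called in either direction, and DESeq2 and limma-voom gave the same counts of 0. At an unadjusted p under 0.05 in edgeR's test, 2 clustered genes were higher and 8 lower, and 2 variant genes were higher and 2 lower, against 19.5% higher and 20.2% lower of all genes tested. With the adjusted p alone, 6 clustered genes were lower and none was higher, and 1 variant gene was lower and 2 were higher, against 14.2% of all genes in either direction. Every SCA7 library was below every WT library for 6 clustered and 2 variant genes tested, against 18.3% of all genes, and above for 0 clustered and 2 variant genes, against 19.3%.

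The median log2 FC was -0.15 over the clustered genes tested, 0.10 over the variant genes and -0.02 over all genes tested. The clustered median was -0.03 without WT replicate 3 and -0.28 without SCA7 replicate 3. Below 0 were 37 of 54 clustered genes (68.5%) and 4 of 11 variant genes (36.4%), against 52.5% of all genes and 46.4% of protein-coding genes tested. By family, clustered H3 had a median of -0.25, H4 -0.22, H2A -0.17, H1 -0.16 and H2B 0.09. Among clustered H3 genes 9 of 10 were below 0, among H2A genes 9 of 11, among H4 genes 8 of 11, among H1 genes 4 of 6 and among H2B genes 7 of 16. Variant H1 genes had a median of 0.23, variant H2A genes of 0.02 and the pair of H3 genes of 0.03.

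**Figure D2:**
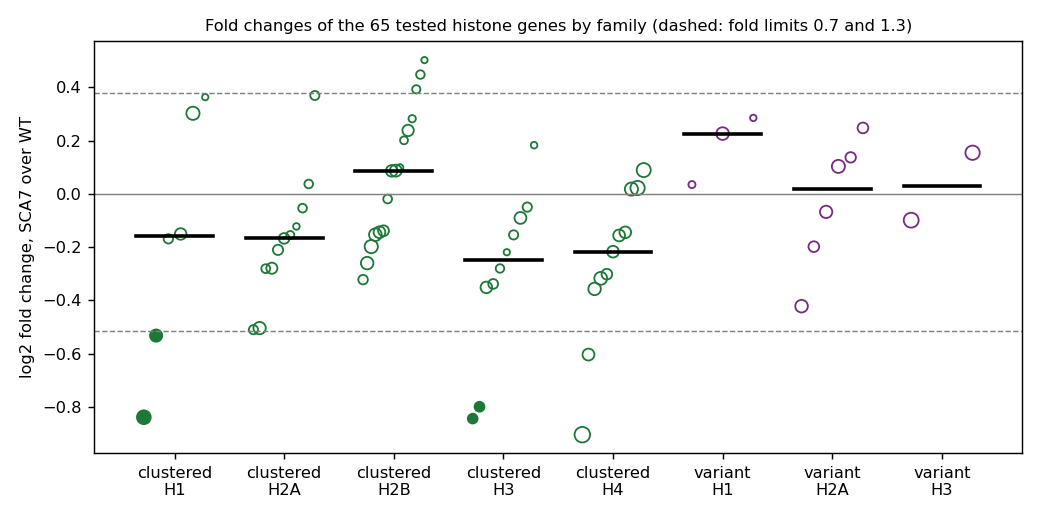
The log2 fold change (SCA7 over WT) of the 65 tested members by class and family. Each circle is a gene, larger with a higher mean CPM in WT and filled where called lower, thick bars are family medians and dashed lines the fold limits of 0.7 and 1.3. The 4 filled circles are 2 clustered H1 and 2 clustered H3 genes, and the H2B median lies above 0.

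Among linker histone genes, *Hist1h1c* fell and *Hist1h1e* did not pass the test with all libraries. Without WT replicate 3, *Hist1h1e* was called higher, with a log2 FC of 0.42. *Hist1h1c*, which encodes H1.2 and had the most counts of the clustered H1 genes in WT retina, had 235, 235, 307 and 229 CPM in WT and 128, 132 and 161 CPM in SCA7 retina. Its log2 FC was -0.84 ± 0.11 (SE, quasi-likelihood adjusted p = 2.74e-04) and all SCA7 libraries were below all WT libraries. *Hist1h1e*, which encodes H1.4, had 125, 136, 173 and 126 CPM in WT and 154, 156 and 208 CPM in SCA7 retina, with overlapping groups and a log2 FC of 0.30 ± 0.14 (quasi-likelihood adjusted p = 0.141). The ratio of *Hist1h1c* to *Hist1h1e* within a library was 1.88, 1.72, 1.77 and 1.82 in WT and 0.834, 0.848 and 0.772 in SCA7 retina. This pair was chosen after its values were seen, and the difference is a description without a test. Of the 50-base windows of *Hist1h1c* 91.5% occur in no other annotated gene, and of those of *Hist1h1e* 68.0%, with the others shared with *Hist1h1c*, *Hist1h1d* and *Hist1h2be*. The exons of *Hist1h1e* also overlap a pseudogene on the same strand, so reads of these genes may be counted under one name. *Hist1h1c* was 51.2% to 52.8% of the clustered H1 sum in WT and 35.5% to 37.3% in SCA7 libraries.

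*Hist1h1a*, which encodes H1.1, had 51.6, 52.4, 73.3 and 50.1 CPM in WT and 35.2, 36.4 and 46.2 CPM in SCA7 retina, with a log2 FC of -0.53 ± 0.15 (quasi-likelihood adjusted p = 0.0328). The groups did not overlap. Its call was lost without WT replicate 3, where the log2 FC was -0.39, within the fold limit, and the adjusted p was above 0.05. It was also lost without SCA7 replicate 1 (quasi-likelihood adjusted p = 0.114) and without SCA7 replicate 2 (adjusted p = 0.103). *H1f0*, the variant linker histone of differentiated cells, had 81.5, 84.4, 95.03 and 74.9 CPM in WT and 101, 93.9 and 100.2 CPM in SCA7 retina. Its log2 FC was 0.23 ± 0.08 (quasi-likelihood adjusted p = 0.0432), within the fold limit, and SCA7 replicate 2 overlapped WT replicate 3. Leaving out any library other than WT replicate 3 raised its adjusted p to between 0.0666 and 0.145. Another variant linker histone gene, *H1fx*, was at 0.544 to 0.7004 CPM in WT and 0.593 to 0.699 CPM in SCA7 retina, with overlapping groups.

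Histone H3 is encoded by 12 clustered genes with 3 distinct products and by *H3f3a* and *H3f3b*, which encode the same H3.3 protein. *Hist1h3a* had 8.46, 6.45, 7.43 and 6.96 CPM in WT and 3.54, 3.46 and 5.16 CPM in SCA7 retina, with a log2 FC of -0.84 ± 0.15 (quasi-likelihood adjusted p = 0.0014). *Hist2h3c2* had 6.83, 9.41, 7.69 and 7.80 CPM in WT and 3.85, 4.96 and 4.83 CPM in SCA7 retina, with a log2 FC of -0.80 ± 0.13 (quasi-likelihood adjusted p = 6.1e-04). Neither gene had an SCA7 library within the WT range. Both were called without any single library and under every other test, scaling and filter on low counts tried. Only 50.5% of the 50-base windows of *Hist1h3a* and 36.5% of those of *Hist2h3c2* occur in no other annotated gene, so reads of near-identical H3 genes may be counted among them. *Hist1h3f* had 29.2 to 37.2 CPM in WT and 22.7, 24.8 and 30.0 CPM in SCA7 retina, and its log2 FC of -0.35 ± 0.11 (quasi-likelihood adjusted p = 0.0274) was within the fold limit. *Hist1h3e*, the clustered H3 gene with the most counts, had 36.1 to 45.9 CPM in WT and 34.4 to 46.6 CPM in SCA7 retina, with an adjusted p of 0.601 in the same test. Its share of the clustered H3 sum was 36.1% to 38.5% in WT and 40.9% to 43.9% in SCA7 libraries.

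H3.3 made up most of the H3 transcripts. *H3f3b* had 716, 813, 795 and 806 CPM in WT and 722, 738 and 732 CPM in SCA7 retina, and *H3f3a* had 396, 403, 510 and 378 CPM in WT and 465, 483 and 459 CPM in SCA7 retina. Their log2 FC were -0.10 ± 0.07 (95% interval -0.25 to 0.05) and 0.15 ± 0.10 (95% interval -0.05 to 0.36). For both genes the groups overlapped. Without WT replicate 3, the log2 FC of *H3f3a* was 0.26 (quasi-likelihood adjusted p = 0.00273), within the fold limit. On a scale per length (counts per kilobase of transcript, scaled by size factors), the level of the pair was 72090 to 86669 in WT and 79988 to 81824 in SCA7 retina, and that of the clustered H3 genes was 8495 to 10491 and 7050 to 9141.

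**Figure D3:**
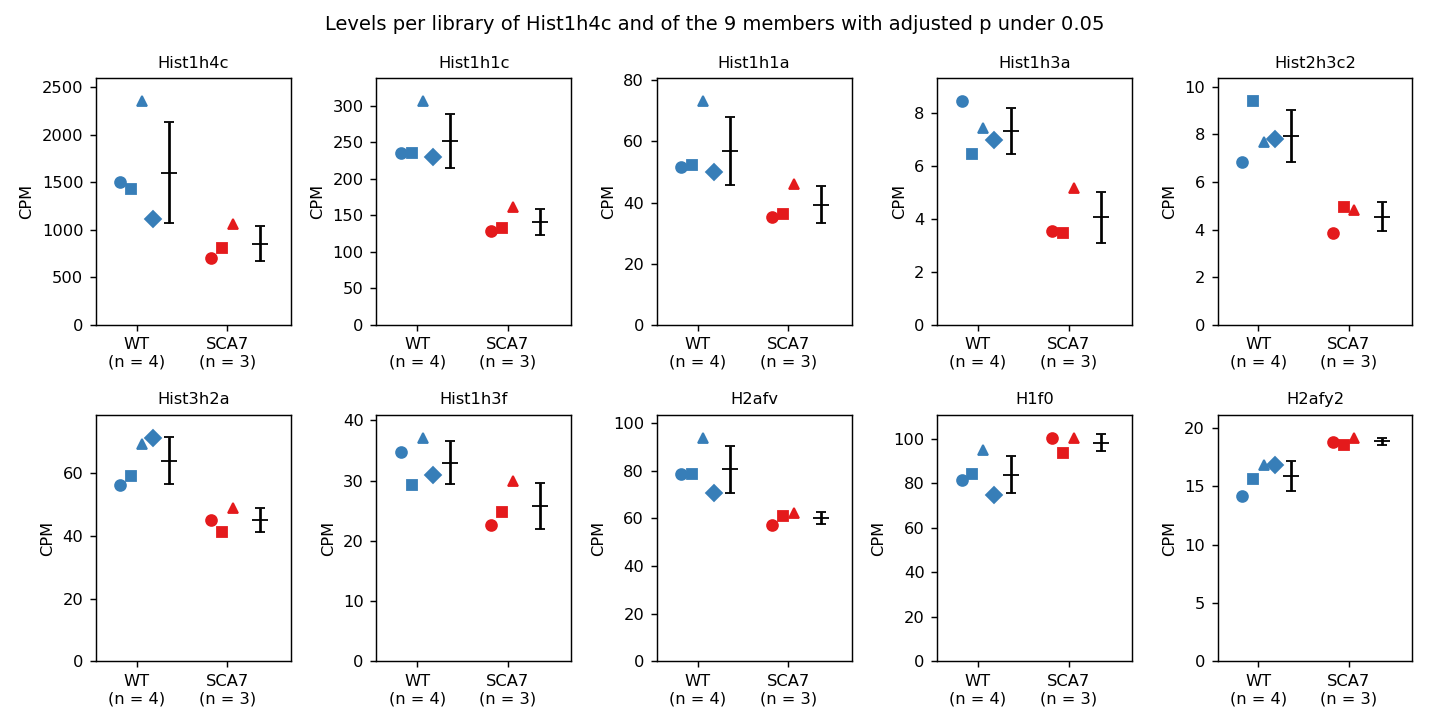
Levels in CPM, on axes from 0, of Hist1h4c and of the 9 members with an adjusted p under 0.05, in 4 WT (blue) and 3 SCA7 (red) libraries. Markers are libraries (circle, square, triangle and diamond for replicates 1 to 4), and black bars give the mean ± SD. The groups do not overlap in 8 of the panels, and in those of Hist1h3f and H1f0 a single library of each genotype crosses.

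Histone H4 is encoded by 13 clustered genes, which all translate to 1 product, and has no variant gene among the members. Of 11 H4 genes tested, only *Hist1h4c* separated the genotypes. Over all genes, every SCA7 library was below every WT library for 18.3% and above for 19.3%. The log2 FC of *Hist1h4c* was -0.90 ± 0.28, the largest decrease among the members tested, but its adjusted p of 0.0567 in the quasi-likelihood test missed the threshold. It was called lower by DESeq2 (adjusted p = 0.0206) and limma-voom (adjusted p = 0.0119). Without WT replicate 4 the adjusted p was 0.0283 in the quasi-likelihood test, and over the other libraries left out in turn it was between 0.0503 and 0.177. *Hist1h4d* had 355, 392, 556 and 369 CPM in WT and 381, 405 and 488 CPM in SCA7 retina, a log2 FC of 0.02 with a 95% interval from -0.34 to 0.38. *Hist1h4h* had 294, 313, 465 and 232 CPM in WT and 313, 335 and 392 CPM in SCA7 retina, a log2 FC of 0.09 with an interval from -0.46 to 0.63. *Hist4h4*, which stands apart from the large clusters on chromosome 6, had 97.3 to 207 CPM in WT and 123 to 164 CPM in SCA7 retina, a log2 FC of 0.02 with an interval from -0.65 to 0.69. *Hist1h4k* had 55.1 to 105 CPM in WT and 50.1 to 67.3 CPM in SCA7 retina, and 28.5% of its windows are unique. *Hist1h4c* thus made up 53.7% to 58.3% of the H4 sum in WT and 39.5% to 43.7% in SCA7 libraries. Per length, *Hist1h4c* was the most abundant member in both genotypes, at a mean of 134485 scaled counts per kilobase in WT and 72520 in SCA7 retina, followed by *Hist1h4h* at 47877 and 51414.

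Among H2A genes, *Hist3h2a* and *H2afv* were lower by the adjusted p alone, and neither passed the fold limit. *Hist3h2a*, the clustered H2A gene with the most counts, had 56.2, 58.9, 69.1 and 71.2 CPM in WT and 44.9, 41.2 and 48.9 CPM in SCA7 retina. Its log2 FC was -0.50 ± 0.09 (quasi-likelihood adjusted p = 0.00164), an FC of 0.705, just short of the limit of 0.7. It was called without WT replicate 1, without WT replicate 2 and without SCA7 replicate 3, with a log2 FC of -0.57 at the lowest. The exons of *Hist3h2a* overlap those of *Trim17* on the same strand, and reads of the shared stretch cannot be told apart. *H2afv*, which encodes an H2A.Z protein, had 78.7, 78.8, 93.9 and 70.6 CPM in WT and 57.1, 60.8 and 62.2 CPM in SCA7 retina, with a log2 FC of -0.42 ± 0.09 (quasi-likelihood adjusted p = 0.00322), an FC of 0.747. *H2afz*, which encodes the other H2A.Z protein, had 62.2, 62.3, 68.1 and 57.1 CPM in WT and 59.3, 60.0 and 59.3 CPM in SCA7 retina, a log2 FC of -0.07 with a 95% interval from -0.21 to 0.07. The difference between the fold changes of these genes was not tested.

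*H2afy* and *H2afy2* encode the macroH2A proteins, which carry a large domain of their own and are known from silent chromatin. For *H2afy2*, 14.2, 15.7, 16.9 and 16.8 CPM in WT stood against 18.8, 18.6 and 19.2 CPM in SCA7 retina, a log2 FC of 0.25 ± 0.07 (quasi-likelihood adjusted p = 0.0254), within the fold limit. The adjusted p of *H2afy2* was between 0.0574 and 0.0927 without WT replicate 1, WT replicate 2 or any SCA7 replicate. *H2afy* had 121, 126, 131 and 122 CPM in WT and 132, 135 and 136 CPM in SCA7 retina, without overlap, and a log2 FC of 0.10 ± 0.06 (quasi-likelihood adjusted p = 0.189). Genes on the opposite strand overlap the exons of *H2afy*, *H2afy2*, *H2afx*, *H2afj*, *H1f0*, *H1fx* and *H3f3a*, and whether the counting used the strand is not given in the sources used here. *H2afx*, whose protein is phosphorylated at DNA breaks, had 16.3, 14.9, 15.2 and 16.3 CPM in WT and 13.5, 12.8 and 14.7 CPM in SCA7 retina, without overlap, and a log2 FC of -0.20 ± 0.07 (quasi-likelihood adjusted p = 0.0646). Without WT replicate 3 the adjusted p of *H2afx* was 0.0393 in the same test. *H2afj* had 10.8 to 14.2 CPM in WT and 13.1 to 14.8 CPM in SCA7 retina, with a log2 FC of 0.14 ± 0.09.

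No H2B gene passed the adjusted p in edgeR's test without covariates, with 1 higher and 0 lower at an unadjusted p under 0.05, and the groups overlapped for every H2B gene tested. Over all genes the shares were 14.2% in each direction by the adjusted p and 19.5% higher and 20.2% lower by the unadjusted p, against 16 H2B genes tested. For 18.3% of all genes every SCA7 library was below every WT library, and for 19.3% above. *Hist1h2bc*, the H2B gene with the most counts, had 133, 141, 177 and 131 CPM in WT and 110, 130 and 140 CPM in SCA7 retina, a log2 FC of -0.20 with a 95% interval from -0.44 to 0.05. *Hist2h2bb* and *Hist1h2bb* had log2 FC of -0.15 ± 0.18 and -0.26 ± 0.30. *Hist2h2be* had 15.5 to 17.9 CPM in WT and 14.8 to 15.8 CPM in SCA7 retina, a log2 FC of -0.14 ± 0.07. The exons of *Hist2h2bb* are overlapped by an antisense gene and by a lincRNA gene of the same strand, so reads of these genes may be counted under one name. *Hist1h2bl*, at 2.46, 2.39, 3.99 and 2.34 CPM in WT and 3.77, 3.07 and 4.54 CPM in SCA7 retina, had a log2 FC of 0.45 ± 0.20 (quasi-likelihood adjusted p = 0.116), and 17.2% of its windows are unique.

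**Figure D4:**
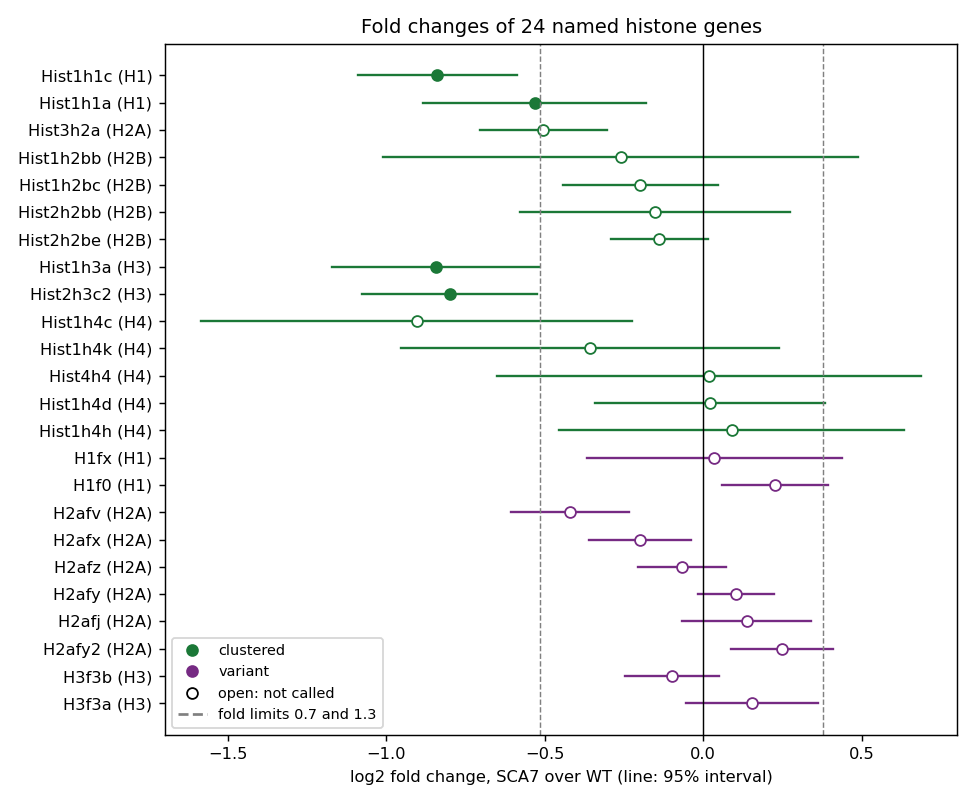
The log2 fold change (SCA7 over WT) and its 95% interval for 24 named histone genes, in green for clustered and purple for variant genes. Filled points were called, and dashed lines mark the fold limits of 0.7 and 1.3. The interval of Hist1h4c runs from -1.59 to -0.22, and those of Hist1h4d, Hist1h4h and Hist4h4 include 0.

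Within each genotype, 1 library stood above the others in most clustered genes. In WT replicate 3, 49 of 54 clustered genes tested (90.7%) were above the mean of the WT libraries, by a median of 0.33 on the log2 scale. In SCA7 replicate 3, 53 of 54 (98.1%) were above the SCA7 mean, by a median of 0.25. The medians of the other libraries were between -0.18 and -0.08. Variant genes deviated less in the same libraries, by a median of 0.09 in WT replicate 3 and 0.03 in SCA7 replicate 3, and all genes tested by 0.00. The summed level of the 22 listed genes of replication and the cell cycle was 163 CPM in WT replicate 3 against 150 to 157 CPM in the other WT libraries, and 145 CPM in SCA7 replicate 3 against 144 and 146 CPM. The 34 small nuclear RNAs tested deviated by a median of 0.32 in WT replicate 3 and of -0.39 in SCA7 replicate 3. The summed level of the pigment epithelium markers was lowest in both replicate 3 libraries. It was 59.8 CPM against 115 to 122 CPM in WT and 12.6 CPM against 23.3 and 30.2 CPM in SCA7 retina. Other marker sums were highest in WT replicate 3, such as red blood cells at 76.7 CPM against 54.5 to 55.6 CPM. Microglial markers had 62.7 CPM there against 48.4 to 56.8 CPM, and endothelium and pericytes 276 CPM against 231 to 247 CPM. In SCA7 replicate 3 the first 2 were lowest, at 30.5 and 120 CPM, and the last was highest, at 359 CPM. The part of all these values in the histone levels was not tested. Without WT replicate 3, the median log2 FC of clustered genes was -0.03, with *Hist1h1c*, *Hist1h3a* and *Hist2h3c2* lower and *Hist1h1e*, *Hist1h2bl* and *Hist1h2bm* higher. Without SCA7 replicate 3 the median was -0.28, with 6 clustered genes lower, the 4 above with *Hist3h2a* and *Hist1h2ai*, and none higher. In a comparison chosen after the data were seen, without replicate 3 of both genotypes, 7 clustered genes were lower, the 4 above with *Hist1h4c*, *Hist3h2a* and *Hist1h2ai*, and 2 were higher, *Hist1h2bl* and *Hist1h2bm*, at a median log2 FC of -0.13. The shares of all genes called lower and higher in these fits were 8.59% and 7.74% without WT replicate 3, 6.36% and 6.98% without SCA7 replicate 3, and 7.23% and 7.37% without both.

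**Figure D5:**
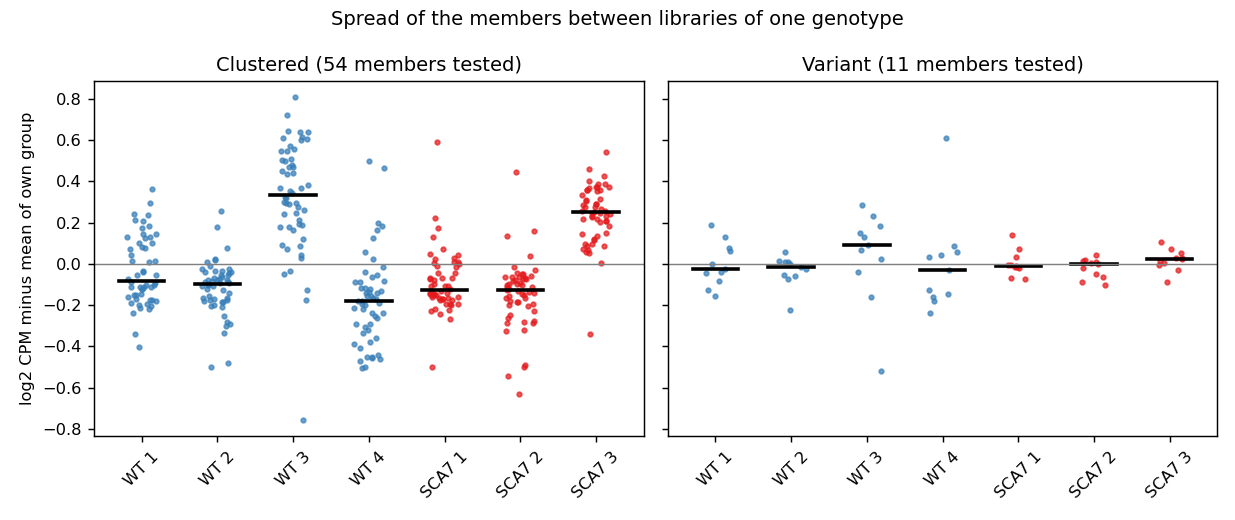
Deviation of each tested member from the mean of its own genotype, as log2 CPM, in 7 libraries (WT blue, SCA7 red), for 54 clustered and 11 variant genes. Points are genes and black bars medians. The medians of clustered genes are 0.33 in WT replicate 3 and 0.25 in SCA7 replicate 3 and below 0 in the other libraries.

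Transcript structure and sequence identity varied with the class. Of the 46 clustered genes with a stem-loop, 23 have annotated transcripts that run over 100 bases beyond it and 23 stop within 100 bases. The summed level of the first was 2394 to 4294 CPM in WT and 1904 to 2622 CPM in SCA7 libraries, a ratio of means of 0.710 with overlapping groups. *Hist1h4c* belongs to them, with 454 annotated bases beyond the stem-loop, and without this gene the ratio was 0.898. The summed level of the second was 384 to 731 CPM in WT and 466 to 605 CPM in SCA7 libraries, a ratio of 1.00. Without WT replicate 3 the ratios were 0.816 for the first, 0.997 for the first without *Hist1h4c* and 1.17 for the second. Without SCA7 replicate 3 they were 0.640, 0.824 and 0.921. The difference between the sets was not tested. The median log2 FC was -0.15 in both sets. The letters AATAAA, a poly(A) signal, follow the stem-loop in the annotated transcripts of *Hist1h1c*, *Hist3h2a* and *Hist4h4*, and not in that of *Hist1h4c*. Whether the counted RNA of clustered genes carried a poly(A) tail was not measured. Near-identical copies limit single values: the median share of 50-base windows that occur in no other annotated gene was 53.0% for clustered and 93.9% for variant members. *Hist2h2aa1* and *Hist2h2aa2*, with 3.7% and 0% unique windows, had 0 and 1 count in all libraries together, and how the counting treated reads that match several copies is not given in the sources used here. Reads of such genes may therefore be absent or placed on a copy. Clustered genes with at least 80% unique windows, 16 in all and 15 tested, had a median log2 FC of -0.15. Of these 2 were called lower, *Hist1h1c* and *Hist1h1a*, 13.3% against 7.91% of all genes tested.

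Factors that read, process or degrade histone mRNA were measured from a list of 16 genes, all tested. None was called in either direction by edgeR, DESeq2 or limma-voom (2 higher and 1 lower at an unadjusted p under 0.05 in edgeR's test), and the median log2 FC was 0.05. Over all genes tested the shares were 7.91% called lower and 7.47% called higher, so a count of 0 of 16 is near the background. *Slbp*, the stem-loop binding protein, had 29.1 to 31.9 CPM in WT and 30.8 to 31.3 CPM in SCA7 retina. *Npat*, the coactivator of clustered histone genes, had 38.2 to 47.2 CPM and 39.7 to 44.0 CPM. *Lsm10*, a subunit of the U7 snRNP that cleaves histone pre-mRNA, was higher by the adjusted p alone, with a log2 FC of 0.31 ± 0.10 (quasi-likelihood adjusted p = 0.0307). *Srrt*, known as ARS2, was lower by the same measure, with a log2 FC of -0.23 ± 0.07 (quasi-likelihood adjusted p = 0.0347).

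Histone chaperones and exchange factors, 20 genes tested, had a median log2 FC of 0.05 and no call by edgeR, DESeq2 or limma-voom, with 6 higher and 1 lower at an unadjusted p under 0.05 in edgeR's test, against 19.5% and 20.2% of all genes. By the adjusted p alone, 1 was lower, *Ubn2*, a subunit of the HIRA complex that deposits H3.3, with a log2 FC of -0.47 ± 0.06 (quasi-likelihood adjusted p = 1.94e-04). Also by that measure 3 were higher, *Ssrp1* and *Supt16*, the subunits of FACT, and *Nap1l1*, with log2 FC of 0.18, 0.20 and 0.26. The background by the adjusted p alone was 14.2% in each direction, so 3 of 20 is at the background.

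Of the 22 genes of replication and the cell cycle, 20 were tested, with a median log2 FC of 0.21. The summed level of the list went the other way, at 150 to 163 CPM in WT and 144 to 146 CPM in SCA7 retina without overlap. *Ccna2*, which encodes cyclin A2, was the only one called lower, at 16.1, 13.95, 9.60 and 15.5 CPM in WT and 5.12, 5.81 and 4.45 CPM in SCA7 retina (log2 FC -1.43 ± 0.17, quasi-likelihood adjusted p = 1.95e-04). Called higher were 5 genes, *Mki67*, *Top2a*, *E2f1*, *Cdk2* and *Mcm5*, with log2 FC between 0.39 and 1.14. The background was 7.91% lower and 7.47% higher over all genes tested. By the adjusted p alone 2 genes were lower and 6 higher, against 14.2% of all genes in each direction. The second lower gene was *Ccne2*, with a log2 FC of -0.46 ± 0.10 (quasi-likelihood adjusted p = 0.00657). At an unadjusted p under 0.05 in edgeR's test 4 were lower and 7 higher, against 20.2% and 19.5% of all genes. *Mki67*, a marker of dividing cells, was at 0.0918 to 0.154 CPM in WT and 0.185 to 0.455 CPM in SCA7 retina. *Top2a*, another, was at 0.188 to 0.281 CPM and 0.292 to 0.520 CPM. The groups did not overlap for either gene, and 1 count is worth 0.00972 to 0.0188 CPM. With DESeq2 3 of these genes were higher and with limma-voom 2.

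Markers of several cell types moved with the genotype beside these values. All 10 rod markers were lower, and their summed level was 62301 to 64053 CPM in WT and 16803 to 21716 CPM in SCA7 retina. Of 7 cone markers 6 were lower and 1 was higher. All 10 microglial markers were higher, at 48.4 to 62.7 CPM against 120 to 135 CPM. Of 4 pigment epithelium markers 3 were lower, at 59.8 to 122 CPM against 12.6 to 30.2 CPM, and of 7 bipolar cell markers 2 were lower, at 776 to 925 CPM against 684 to 726 CPM. Of 6 markers of endothelium and pericytes 2 were higher, at 231 to 276 CPM against 315 to 359 CPM. Of 6 Mueller glia markers 1 was higher and of 5 red blood cell markers 1 was lower, with overlapping sums. No marker of amacrine (6), horizontal (4) or ganglion cells (6) and none of 3 lens markers tested was called by edgeR, although the sums of the first 3 lists were lower in every SCA7 library than in every WT library. At an unadjusted p under 0.05, 4 amacrine, 1 horizontal and 3 ganglion cell markers were lower and no lens marker passed. By the adjusted p alone, 5 bipolar, 3 amacrine, 1 horizontal and 1 ganglion cell markers were lower. Of Mueller glia markers 3 were higher and 1 lower by that measure, and of endothelium and pericyte markers 4 and 1. Over all genes tested 7.91% were called lower and 7.47% higher. By the adjusted p alone it was 14.2% in each direction, and by the unadjusted p 20.2% and 19.5%. The part of these markers in the histone levels was not tested. Total counts were 56497675 to 96635832 per library with a median of 67140118, and *Atxn7* did not pass the test (39.2 and 37.6 CPM, adjusted p = 0.636 by the quasi-likelihood test).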

How the data were processed

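Total RNA-seq of 4 WT and 3 SCA7 retinal libraries was analysed. Per the labels and the study's methods, the authors made stranded libraries depleted of ribosomal RNA, mapped single reads of 50 bases to mm10 with TopHat2 2.0.14 and Bowtie2 2.1.0, and counted them with HTSeq 0.6.1 on Ensembl genes. The deposited values are raw counts without normalization. The HTSeq mode, its strand option and its handling of reads with several positions are not given in the sources used here. Of 52550 genes, 147 had no entry in the annotation used here (GENCODE M21, GRCm38), 45 of them among the genes tested.

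Genes were kept by filterByExpr, scaled by TMM and compared by the robust quasi-likelihood test of edgeR 4.0.16 without covariates, with Benjamini-Hochberg adjustment over 20128 genes, and errors are those of this fit or the SD over mice. Levels per length used DESeq2 size factors and median transcript length. The members and lists were chosen with earlier results of these data known. Named were the called members, the 8 members of each class with the highest level per length, and 15 members fixed by role. Genes named beyond these were chosen after their values were seen. Replicates are separate mice. Same-numbered libraries did not deviate together in every pair (correlations 0.00527, 0.204 and 0.0893), so no block was used. The procedure was tested on simulated counts. Alternatives used DESeq2 1.42.0, limma 3.58.1, other filters, thresholds, offsets, a block and left-out libraries. No genome sequence was used here, so uniqueness was counted among annotated transcripts. The other data types of the study were not analysed here.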

Additional observations from a re-analysis of the deposited data

Results flagged for a closer look

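In the 4 WT libraries, the gap between the highest or lowest library and its nearest neighbour was compared with the whole range for 24 named genes and 33 sums and ratios. Of these 57, 4 stood apart, all of them by WT replicate 3 as the highest library. *Hist1h1c* had 307 CPM there and 229 to 235 CPM elsewhere among WT mice, a gap of 0.923 of the range. *Hist1h1a* had 73.3 CPM there and 50.1 to 52.4 CPM elsewhere, a gap of 0.900 of the range. The summed level of clustered H1 genes was 599 CPM there and 436 to 458 CPM elsewhere, a gap of 0.863 of the range, and 0.864 on the scale per length. Chance flags about 1 in 20 groups, so a count of 4 of 57 is near what chance gives, and these values share their genes. All 3 SCA7 libraries were below the other WT libraries for *Hist1h1c* and *Hist1h1a*, with or without this library.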

How the results depend on the processing

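The 4 lower clustered genes were also called with DESeq2 size factors, DESeq2, limma-voom, at least 10 counts in every library, and offsets for GC content and length. *Hist1h1a* was not called with no filter, at an adjusted p under 0.01, or without WT replicate 3 or SCA7 replicate 1 or 2. *Hist1h4c* joined them with DESeq2, limma-voom, at least 10 counts and the offsets. The direction changed for 6 named genes, each with an adjusted p above 0.05 as reported and in the fit where it changed.

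Clustered genes called higher were 1 with no filter beyond 1 count, 1 with the offsets (*Hist1h2ab* in both) and 2 with the block and offsets, and 0 to 3 with single libraries left out. Over all genes the shares called higher were 4.88%, 7.82% and 8.5% in these fits in turn. With single libraries left out they were 5.88% to 7.74%. Among members with at least 80% unique windows 2 were lower, against 7.91% of all genes. Without replicate 3 of both genotypes 7 were lower and 2 higher, against 7.23% and 7.37% of all genes. Both settings were chosen after seeing the data. With no fold limit, 1 variant gene was lower and 2 were higher, against 14.2% of all genes in each direction. Replication and cell cycle genes called higher were 3 with DESeq2 and 2 with limma-voom, against 7.4% and 7.56% of all genes. The log2 difference of the summed clustered level was -0.37 with TMM and -0.18 with library totals. The log2 difference of the summed variant level, 0.00 with TMM, was 0.19 with library totals and 0.092 without *H3f3b*, while that of the clustered to variant ratio was -0.37 with either scaling.

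The mice of same-numbered libraries carry close animal numbers in the labels, which do not say that they share a litter or batch. With the replicate number as a block, 7 clustered genes were lower, the 4 with *Hist1h4c*, *Hist1h2ai* and *Hist1h4i*, and *Hist1h4d*, *Hist1h4h* and *Hist4h4* had log2 FC of -0.013, -0.019 and -0.087. WT replicate 4 has no SCA7 library of its number and formed a block level by itself, so it does not inform this comparison. Few residual degrees of freedom are left in this fit. With the block, *Hist1h4k* (adjusted p = 1.12e-07 in edgeR's test), *Hist1h2bb* (6.23e-06), *Hist1h2bc* and *Hist2h2bb* (both 0.00557) were also lower by the adjusted p alone. Over all genes the block raised the share called lower from 7.91% to 8.48%, and that by the adjusted p alone from 14.2% to 17.0%. With the replicate block and the offsets *Hist1h4h* was at -0.045 and *Hist4h4* at -0.055. With *Xist* as a covariate 8 clustered genes were lower, against 8.09% of all genes called lower in that fit. *Hist1h4d* was then at -0.038 and *Hist4h4* at -0.050. *Xist* had 4 to 19 counts per library, with 16 in WT and 19 in SCA7 replicate 3, and this covariate separates the same libraries as the clustered genes do and cannot stand for sex.

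With single libraries left out, log2 FC ranged from -0.031 to 0.10 for *H1fx*, -0.48 to 0.0026 for *Hist1h2bb*, -0.089 to 0.19 for *Hist1h4d*, -0.042 to 0.31 for *Hist1h4h*, -0.28 to 0.021 for *Hist2h2bb* and -0.12 to 0.28 for *Hist4h4*. The causes were not tested. The alternative on windows unique in the genome was not run. At this depth 1 count is worth at most 0.0188 CPM.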
